A study of Homo sapiens with 2 samples.

Results

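The genes of 10 subunits of the nucleosome remodelling and deacetylation complex NuRD were examined for peaks of CHD4, itself the ATPase of that complex. The members were *MTA1*, *MTA2*, *MTA3*, *HDAC1*, *HDAC2*, *RBBP4*, *MBD2*, *MBD3*, *GATAD2A* and *GATAD2B*, and a CHD4 peak was counted where at least 1 bp of it overlapped the GENCODE record of the gene or the 2000 bp before its start. Of the 60126 peaks in the list, 47 met this rule, and they lay at 8 of the 10 genes. *MTA1* and *MBD2* had none. The list also holds peaks with a weaker q value than the cutoff that the methods name. Of the 47, 28 were among these, which leaves 19 peaks at 6 genes. The call was made in broad mode, and how that cutoff applies to a whole broad peak is not stated. The 28 are therefore not taken as failed calls.

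CHD4 occupancy was measured by chromatin immunoprecipitation and sequencing (ChIP-seq) in 501Mel, an established human melanoma cell line grown in RPMI medium with foetal calf serum. The design held 1 library from the CHD4 ChIP and 1 from input chromatin of the same line, with no treatment named and both fixed with 0.4% paraformaldehyde, so neither group had a replicate and no test between conditions was possible. The data analysed here were 1 list of broad peaks on hg19 with no read counts, so the depth behind each peak is unknown from the list. Whether the input was the control of the peak call is not stated, and no level of the input can be given beside a peak. A peak list holds no expression, so the identity of the line was not checked and a peak says nothing of how much of the subunit was made.

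NuRD joins an ATPase that slides nucleosomes with enzymes that remove acetyl groups from histones. The MTA proteins form its scaffold and hold the deacetylases HDAC1 and HDAC2 and the histone chaperone RBBP4, while MBD2 or MBD3 and the GATAD2 proteins connect this deacetylase core to the ATPase, CHD4 in many cell types. HDAC1, HDAC2 and RBBP4 also serve other corepressor complexes, such as SIN3.

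The sequences before 5 of the starts and under 3 of the strongest peaks are shown for starts without a peak, beside a peak and under one, and for enrichment far from the start. Each is 200 bases of GRCh37, the build that hg19 names, read 5′ to 3′ on the strand of the gene. *MTA1* (chr14:105885957-105886156, plus strand) and *MBD2* (chr18:51751040-51751239, minus strand) had no peak, *HDAC1* (chr1:32757484-32757683, plus) and *GATAD2A* (chr19:19496435-19496634, plus) lay in a gap between flanking peaks, and *RBBP4* (chr1:33116543-33116742, plus) was covered by a peak. Capitals mark matches on either strand to GGGCGG (the SP/KLF box), CCAAT (NFY), CCGGAAG (ETS), CACGTG (E-box) or TGANTCA (AP-1).
MTA1 before start: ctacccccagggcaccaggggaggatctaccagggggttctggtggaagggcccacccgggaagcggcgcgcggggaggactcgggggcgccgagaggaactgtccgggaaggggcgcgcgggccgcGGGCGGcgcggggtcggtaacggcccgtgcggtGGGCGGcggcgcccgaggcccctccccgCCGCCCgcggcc
MBD2 before start: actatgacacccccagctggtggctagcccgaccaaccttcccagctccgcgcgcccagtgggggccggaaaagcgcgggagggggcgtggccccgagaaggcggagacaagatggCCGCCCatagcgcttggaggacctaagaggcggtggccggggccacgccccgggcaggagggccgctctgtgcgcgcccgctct
HDAC1 before start: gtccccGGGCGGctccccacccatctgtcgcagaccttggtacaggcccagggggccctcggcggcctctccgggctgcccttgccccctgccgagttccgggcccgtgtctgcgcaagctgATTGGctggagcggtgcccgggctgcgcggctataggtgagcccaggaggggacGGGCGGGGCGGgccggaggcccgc
GATAD2A before start: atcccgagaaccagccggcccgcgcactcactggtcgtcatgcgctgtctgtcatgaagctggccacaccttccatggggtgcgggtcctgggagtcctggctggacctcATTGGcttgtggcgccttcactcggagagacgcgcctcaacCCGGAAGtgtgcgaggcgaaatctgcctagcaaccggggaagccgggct
RBBP4 before start: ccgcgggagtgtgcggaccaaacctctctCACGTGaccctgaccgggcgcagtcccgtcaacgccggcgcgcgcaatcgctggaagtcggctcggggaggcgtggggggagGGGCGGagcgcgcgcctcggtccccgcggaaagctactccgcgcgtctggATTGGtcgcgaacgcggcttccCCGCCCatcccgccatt

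The 3 peak sequences are 200 bases at the centre of *MTA3* peak 2 (chr2:42737685-42737884, plus), of *GATAD2A* peak 11 (chr19:19600335-19600534, plus) and of *HDAC2* peak 7 (chr6:114275256-114275455, minus), numbering the peaks from the 5′ end of each gene. They are the peaks of highest fold enrichment at their genes.
MTA3 peak 2: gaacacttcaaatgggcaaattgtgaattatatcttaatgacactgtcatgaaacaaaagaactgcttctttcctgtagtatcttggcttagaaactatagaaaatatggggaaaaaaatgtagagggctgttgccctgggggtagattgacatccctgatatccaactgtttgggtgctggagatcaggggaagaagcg
GATAD2A peak 11: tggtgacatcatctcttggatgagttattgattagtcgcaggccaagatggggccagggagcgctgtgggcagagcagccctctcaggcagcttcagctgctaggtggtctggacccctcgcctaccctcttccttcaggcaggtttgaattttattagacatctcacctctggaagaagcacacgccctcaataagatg
HDAC2 peak 7: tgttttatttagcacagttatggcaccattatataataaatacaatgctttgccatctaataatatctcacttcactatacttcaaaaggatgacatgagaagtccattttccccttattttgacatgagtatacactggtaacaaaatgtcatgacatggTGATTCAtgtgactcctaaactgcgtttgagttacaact

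The start sequences held 29 CpG dinucleotides in *MTA1*, 20 in *MBD2*, 19 in *HDAC1*, 16 in *GATAD2A* and 32 in *RBBP4*, whereas the 3 peak sequences held 1, 4 and 1. Of the *MTA1* window, 120 bp belong to an exon of the neighbouring gene *MTA1-DT*, and the other 7 windows hold no annotated exon. In *HDAC1* a pair of GGGCGG boxes next to the start shared 1 G. The HDAC2 peak was the only one of these 3 windows with a match to any of the 5 short motifs, to AP-1.

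Which NuRD subunit genes carried CHD4, and where along the gene, was asked first. A peak was present at 8 of 10 members (80%, Wilson 95% interval 49.0% to 94.3%), beside 58.5% of the 20098 protein-coding genes of chromosomes 1 to 22 and X. Among the 14454 coding genes whose length lay within the members' range of 8652 to 262379 bp, the share was 64.8%. The interval of the members held both shares, and all intervals here cover counting error only, since neither genes nor peaks are replicates.

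Near the start of the gene record the members stood further from the other genes. A peak lay within 1000 bp of the start at 7 of 10 members (70%, interval 39.7% to 89.2%), against 33.9% of coding genes. The start itself was under a peak at 4 members, *MTA3*, *HDAC2*, *RBBP4* and *GATAD2B* (interval 16.8% to 68.7%), against 13.4% of coding genes. Both intervals lay above the share over all coding genes, which is a comparison within 1 library and with genes that were chosen for their function. The count over the start itself depends on the gene record. With the canonical transcript, the start was under a peak at *HDAC2*, *RBBP4* and *GATAD2B*. The nearest peak to that of *MTA3* ended 230 bp before it. No interval or share over all coding genes is given for that count.

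Fewer members had stronger peaks. Where peaks needed a −log10 q (q being the adjusted p-value of the peak) of 2 or more, 6 of 10 members had one (interval 31.3% to 83.2%), against 43.4% of coding genes. At a minimum of 5 the members left were *MTA3* and *GATAD2A* (2 of 10, interval 5.67% to 51.0%), against 4.75% of coding genes. The interval held the share over all coding genes in the former case and lay just above it in the latter, where it rests on 2 peaks. No share among genes of like length is given at either minimum. *MTA3* and *GATAD2A* had the most peaks of the members, 15 and 11, and a gene with more peaks has more chances to hold a strong one. The part of this in the count was not tested.

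**Figure D1:**
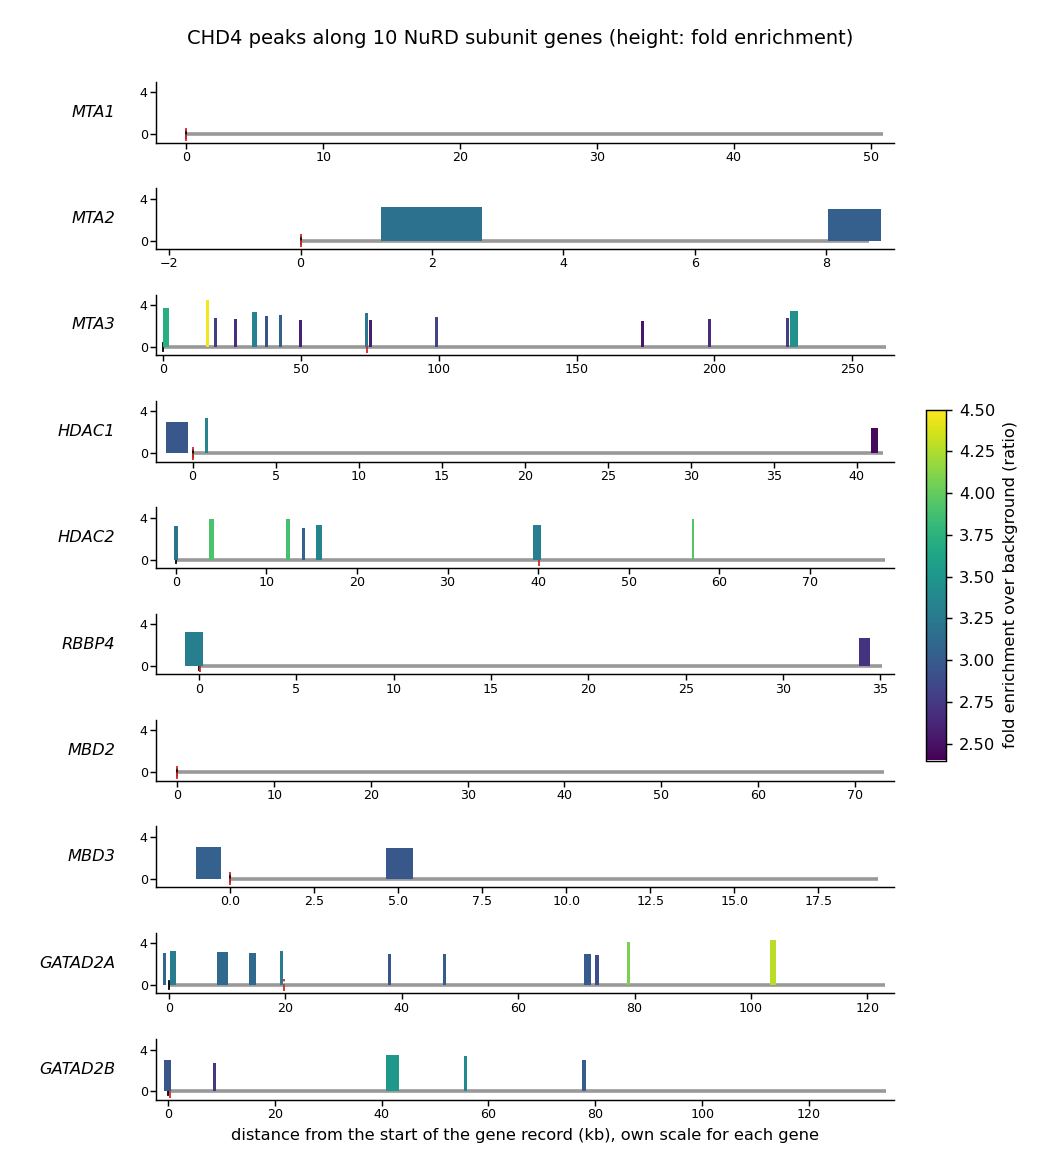
CHD4 peaks along each of the 10 genes, drawn from 5′ to 3′ as distance from the start of the gene record in kb, with an own scale for each gene. Bar height and colour give fold enrichment over background, narrow peaks are widened to be visible, the black tick marks the start of the gene record and the red dashed tick that of the canonical transcript. *MTA3* carried 15 peaks and *GATAD2A* 11, and *MTA1* and *MBD2* none.

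The scaffold genes differed widely from one another. *MTA3* (ENSG00000057935, chr2:42721709-42984087, plus strand, 262379 bp) had 15 peaks, the most of any member, with fold enrichments over background from 2.53 to 4.47. Its peak 1 ran from 237 bp before to 2216 bp after the start of the gene record (fold enrichment 3.72, −log10 q 3.51). Its peak 2 (chr2:42737532-42738036, 505 bp) was the strongest of all members, 4.47-fold over background at a −log10 q of 5.74, and 98.3% of the list had a lower fold enrichment.

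The peaks of *MTA3* were crowded towards its 5′ end. In the first 76 kb, 29.0% of the gene, lay 10 of the 15 peaks, and the longest stretch without one, 74397 bp, lay further in. The bound of 76 kb lies just past the end of peak 10 and was set with the peaks known, so this is a description only. The canonical transcript MTA3-201 starts 74063 bp inside the gene record, and 9 peaks lay before that start. The nearest to it ended 230 bp upstream (peak 9, 168 bp, fold enrichment 3.22, GC content 64.9%). Peak 15 (chr2:42949074-42952043) was the longest of all members at 2970 bp, covered all of exon 16 and had a fold enrichment of 3.46. Of the 818 coding genes within 25% of the length of *MTA3*, 13.0% had at least as many peaks.

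*MTA2* (ENSG00000149480, chr11:62360686-62369337, minus strand, 8652 bp), the shortest member, had 2 peaks with fold enrichments of 3.19 and 3.03 and −log10 q values of 1.98 and 1.68. The former ran from 1219 to 2756 bp after the start, over all of exon 3, and the latter covered part of the last exon, 18, and 187 bp past the end of the gene. Neither came within 1000 bp of the start of the gene record, which set *MTA2* apart from the other 7 genes with a peak. With any transcript start of the gene counted, all 8 had such a peak. With 2 peaks in a short gene its density, 1.88 per 10 kb, was the highest of the members, and 15.6% of 1890 genes of like length had at least as many.

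*MTA1* (ENSG00000182979, chr14:105886157-105937066, plus strand, 50910 bp) had no peak, as had 32.9% of the 2643 coding genes of like length. The nearest peak before its start was 21072 bp away (fold enrichment 3.33), and the nearest after the gene was 5640 bp beyond its end (2.75). The gene thus lay in a stretch of 77621 bp without a peak, and 11.8% of the 60076 stretches between neighbouring peaks were at least as long, counting sequenced bases. Around a gene without a peak the stretch must be longer than the gene, so this rank is a description only. The start of *MTA1* was GC-rich (76.8% in the 250 bp before it), the highest of the 10. The next were *MBD3* (74.8%) and *HDAC1* (71.6%), both of which had a peak near the start.

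The 2 deacetylase genes both had peaks at the start, in different arrangements. *HDAC1* (ENSG00000116478, chr1:32757684-32799236, plus strand, 41553 bp) had 3 peaks. One ended 264 bp before the start (1357 bp long, fold enrichment 2.97) and the next began 747 bp after it, in intron 1 (186 bp, fold enrichment 3.35, −log10 q 2.38), so the start sat in a gap of 1010 bp. The third lay in the last exon, 14, and had the lowest fold enrichment of all 47 peaks, 2.45.

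*HDAC2* (ENSG00000196591, chr6:114254192-114332472, minus strand, 78281 bp) had 7 peaks with fold enrichments from 3.04 to 3.93, and 6 of them had a −log10 q of at least 2. Peak 1 covered the start of the gene record, from 181 bp before to 196 bp after it (3.20), and peak 6 (888 bp, 3.29) covered the canonical start, which lies 40160 bp inside the record. The other peaks before the canonical start, 2, 3, 4 and 5, had fold enrichments of 3.91, 3.88, 3.04 and 3.35. Peaks 1 to 6 all overlapped *HDAC2-AS2*, an antisense long non-coding gene, and a ChIP peak has no strand that could assign it to either gene. Peak 7, in intron 5, had the highest fold enrichment of the gene, 3.93, with a −log10 q of 3.45 over 200 bp. Among 2207 coding genes of like length, 9.47% had at least as many peaks.

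*RBBP4* (ENSG00000162521, chr1:33116743-33151812, plus strand, 35070 bp), the histone chaperone shared with other complexes, had a peak at each end. The peak at the start (952 bp) ran from 713 bp before to 238 bp after it, covered exon 1 whole and was enriched 3.29-fold (−log10 q 2.15). The peak at the other end lay in exon 12 and was weaker, at 2.71-fold (−log10 q 1.20). Each overlapped a neighbouring coding gene as well, *ZBTB8OS* at the start and *SYNC* at the end, so neither belongs to *RBBP4* alone. *RBBP4* and *HDAC1* are near each other on chromosome 1, so the surroundings of 1 Mb on either side, with which densities are compared, overlap for these genes.

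The methyl-CpG-binding-domain genes *MBD3* and *MBD2* encode alternative subunits, and only *MBD3* had peaks. *MBD3* (ENSG00000071655, chr19:1573595-1592864, minus strand, 19270 bp) had 2, the first ending 263 bp before the start (755 bp, fold enrichment 3.05) and the second in intron 1, from 4634 bp after it (825 bp, 2.97). Their −log10 q values, 1.72 and 1.56, were both below 2. Both also overlapped ENSG00000267059, another coding gene record.

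*MBD2* (ENSG00000134046, chr18:51677976-51751039, minus strand, 73064 bp) had no peak, as had 27.9% of the 2275 coding genes of like length. The stretch around it without a peak was far larger than the gene. It ran over 2161969 bp (chr18:51094871-53256839), of which 2011969 bp are sequenced in GRCh37, and 47 of the 60076 stretches (0.0782%) held at least as many sequenced bases. The median stretch was 9479 bp. Lying wholly inside the interval with *MBD2* were 6 other coding genes, *POLI*, *STARD6*, *C18orf54*, *DYNAP*, *RAB27B* and *CCDC68*. By that choice none of them has a peak along the gene, and genes only partly inside the interval were not listed. The peaks at its 2 edges had fold enrichments of 3.04 and 3.19, on either side of the median of the list, 3.09. The start of *MBD2* had a GC content of 66.4%, near the members' median of 66.8%.

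The GATAD2 genes, whose products bind the MBD subunit and the ATPase, both had peaks at the start and along the gene. *GATAD2A* (ENSG00000167491, chr19:19496635-19619741, plus strand, 123107 bp) had 11 peaks with fold enrichments from 2.91 to 4.29. A peak ended 495 bp before the start (3.11) and another began 185 bp after it (3.26), leaving a gap of 679 bp with the start inside. At the canonical start, 19849 bp further in, the nearest peak ended 235 bp upstream (peak 5, 3.26).

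The 2 peaks of *GATAD2A* with the highest fold enrichment lay far from the start of the record and from that of the canonical transcript. Peak 11 (chr19:19599891-19600978, 1088 bp, intron 2) was enriched 4.29-fold, at a −log10 q of 4.44. Peak 10 (chr19:19575557-19575710, intron 1) was only 154 bp long and had a fold enrichment of 4.08, with a −log10 q of 5.14, and it lay within 1000 bp of another annotated transcript start. The remaining 9 had fold enrichments of at most 3.26. Of 1789 coding genes of like length, 8.27% had at least as many peaks.

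*GATAD2B* (ENSG00000143614, chr1:153761506-153895836, minus strand, 134331 bp) had 5 peaks with fold enrichments from 2.74 to 3.51. Peak 1 ran from 611 bp before to 629 bp after the start of the record, covered exon 1 whole, and had a fold enrichment of 2.96. The other 4 all lay in intron 1, the strongest being peak 3 (chr1:153852551-153854904, 2354 bp, fold enrichment 3.51, −log10 q 3.12). Beyond the counted window, a further peak lay 2447 bp before the start, 447 bp outside it (3.47, −log10 q 3.23), and the nearest peak outside the window of *GATAD2A* was 1522 bp away from it (3.15). Although longer than *GATAD2A*, *GATAD2B* had fewer peaks, and 31.0% of 1728 genes of like length had at least 5.

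As a median over the gene records, the members had more peaks per 10 kb than coding genes in general, but not stronger ones. The median number of peaks per 10 kb was 0.628 over the 10 genes, with *MTA1* and *MBD2* at 0, against 0.177 over all coding genes and 0.246 over those in the members' range of length. Over the summed length of the genes the density was 0.555 per 10 kb, against 0.287 and 0.334. The surroundings of the members were dense as well, with a median of 43.5 peaks per Mb against 27 over all coding genes. The part of the surroundings in the density of the members was not tested. With a −log10 q minimum of 2 the median of the members fell to 0.168. No value over all coding genes is given at that minimum, so 0.168 cannot be set against 0.177 or 0.246. With the canonical transcript in place of the gene record 30 of the 47 peaks were counted. *MTA3*, *GATAD2A* and *HDAC2* together held 33 of the 47 peaks (70.2%) in 56.1% of the summed length. Longer members had more peaks (Spearman rho 0.652 over 10 genes, and 0.479 over all coding genes), as a description of genes that share 1 library.

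The fold enrichments of the members' peaks were those of ordinary peaks in the list. Their median was 3.05 (quartiles 2.92 and 3.34), against 3.09 (2.86 and 3.42) over the whole list, and 24 of 47 were below the median of the list. The median −log10 q was 1.81 against 1.97. The highest peak per gene had a median fold enrichment of 3.43 over the 8 members with a peak and 3.44 over the 11753 coding genes with a peak. A −log10 q of at least 2 was reached by 19 of 47 peaks (40.4%, interval 27.6% to 54.7%), against 48.5% of the list. At least 5 was reached by 2 of 47 (4.26%, interval 1.17% to 14.2%), against 2.23%, and both intervals held the share of the list.

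**Figure D2:**
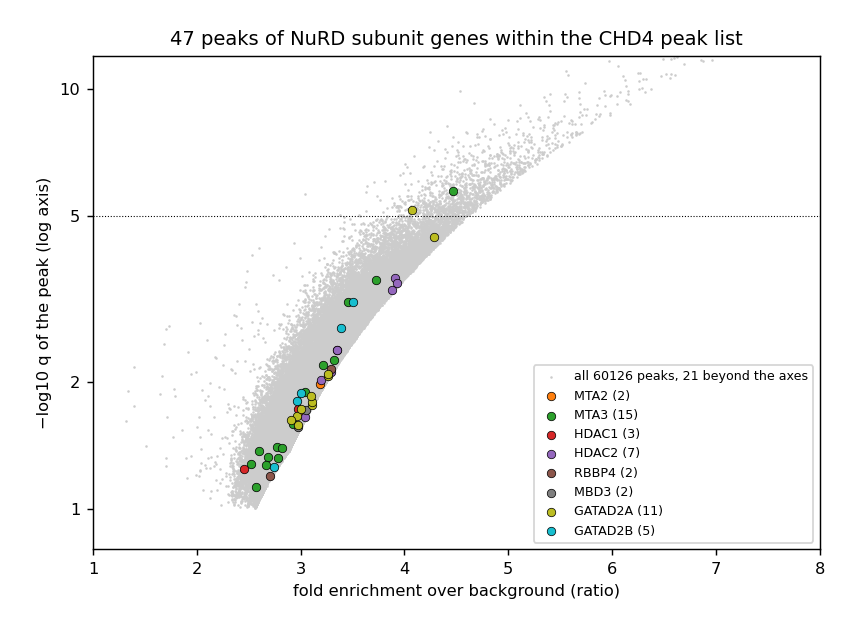
Fold enrichment (x axis, ratio) and −log10 q (y axis, log scale) of all 60126 CHD4 peaks in grey and of the 47 peaks at NuRD subunit genes in colour, with the number of peaks per gene in the key and the dotted line at a −log10 q of 5. The members' peaks sit inside the main cloud, and 1 of *MTA3* and 1 of *GATAD2A* lie above the line. The axes end at 8-fold enrichment and at 12 for −log10 q, and 21 peaks of other genes or regions lie beyond them.

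Of the 47 peaks, 18 (38.3%, interval 25.8% to 52.6%) lay within 1000 bp of an annotated transcript start of any gene, against 23.2% of 60123 nuclear peaks. The window of each member includes a gene start by construction, whereas the list also holds peaks between genes. The centre fell in an exon of the canonical transcript in 3 cases, in an intron in 20, of which 12 were intron 1, and outside the canonical transcript in 24. Peaks touched a canonical exon in 8 cases and covered one whole in 4. No shares over the whole list are given for these placements. They also depend on the gene records, since 9 peaks of *MTA3*, 5 of *HDAC2* and 5 of *GATAD2A* lay wholly before the canonical start. The median length was 556 bp against 613 bp in the list, the median GC content 46.3% against 43.8%, and the ratio of observed to expected CpG 0.242 against 0.203.

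Against the megabase on either side, 2 genes stood above their surroundings when the whole gene record was counted. The share of all coding genes that do so is not given, so whether this count is unusual cannot be told. The surroundings also hold stretches between genes, and the intervals were not adjusted for their number. *HDAC2* had 87.2 peaks per Mb (exact Poisson 95% interval 35.1 to 180) and its surroundings 13, a ratio of 6.71. *GATAD2A* had 87.9 (43.9 to 157) and its surroundings 32.5, a ratio of 2.71. These were the only members whose interval lay wholly above the density around them, and neither did so over the canonical transcript and the 2000 bp before it. Counted that way, *HDAC2* had 49.8 (6.04 to 180) in surroundings of 15.5 and *GATAD2A* 66.5 (26.7 to 137) in surroundings of 32. With peaks of a −log10 q of 2 or more over the gene record, *HDAC2* had 74.7 (27.4 to 163) in surroundings of 5.5, and the interval of *GATAD2A* (8.71 to 81.9) held its surroundings of 15.

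For each of the remaining 8 genes the interval held the density around it. *MTA3* had 56.7 peaks per Mb (31.8 to 93.6) in surroundings of 73, *HDAC1* 68.9 (14.2 to 201) in 61, *RBBP4* 54.0 (6.53 to 195) in 65.5, *MBD3* 94.0 (11.4 to 340) in 91.5 and *GATAD2B* 36.7 (11.9 to 85.6) in 45. *MTA2* had 188 (22.7 to 678) in 42, an interval that reaches below its surroundings and rests on 2 peaks. *MTA1* lay in surroundings of 12, and its count of 0 allows up to 69.7 peaks per Mb. *MBD2* lay in surroundings of 1.5, sparser than those of all but 1.61% of coding genes, and its 0 allows up to 49.1. The median over all coding genes was 27 (quartiles 15 and 42), and the surroundings of *MBD3* were denser than those of 99.0% of them. Chromosome 19, which carries *MBD3* and *GATAD2A*, was the densest in the list at 41.0 peaks per Mb, whereas chromosomes 14 and 18, which carry *MTA1* and *MBD2*, ranked 21 and 22 of 23 at 10.3 and 9.41. The part of these regional densities in the members' counts was not tested.

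**Figure D3:**
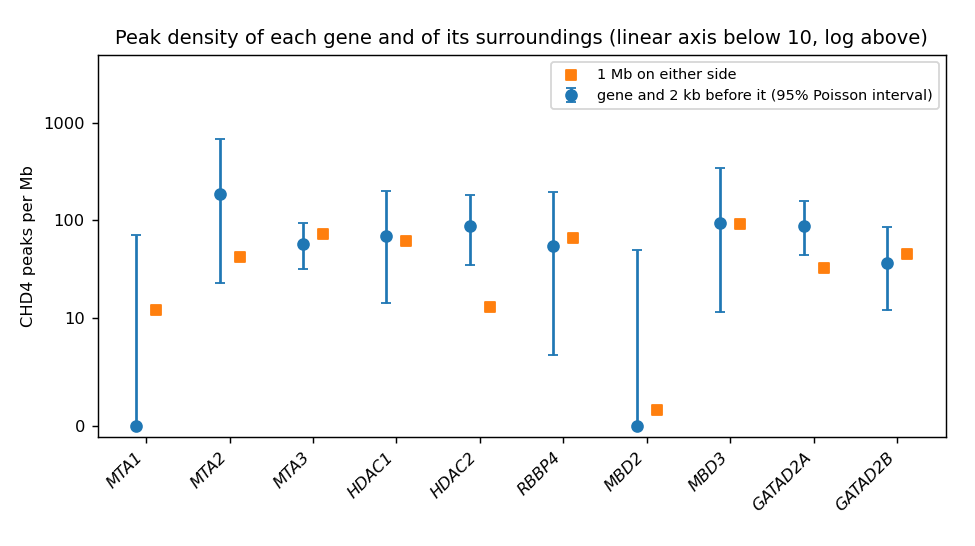
CHD4 peaks per Mb in each gene with the 2000 bp before it (circles, with exact Poisson 95% intervals) and in the 1 Mb on either side (squares), on an axis that is linear below 10 and logarithmic above. For the whole gene record, the circles of *HDAC2* and *GATAD2A* lie above their squares with the whole interval, which is not so over the canonical transcript (intervals from 6.04 and 26.7 around surroundings of 15.5 and 32), and *MTA1* and *MBD2* are at 0.

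The 250 bp before the gene start were compared for short motifs, each counted on both strands. GGGCGG was present in 9 of 10 members, all but *HDAC2*, against 48.8% of all coding genes. CCAAT was present in 4, *HDAC1*, *RBBP4*, *MBD3* and *GATAD2A*, against 33.1%. CCGGAAG was present in *MTA2* and *GATAD2A*, against 8.94%, and CACGTG in *RBBP4*, against 7.17%. TGANTCA and the CTCF consensus were in none of the 10 windows, and they are rare in such windows overall (5.45% and 0.517%). The windows of *MTA1* and *MBD2*, with no CHD4 peak, held GGGCGG as did those of genes with one, at 3 and 1 matches.

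The base composition of these windows varied, with a GC content from 44.4% to 76.8%. Their median GC content was 66.8% against 59.6% over all coding genes, and the median ratio of observed to expected CpG was 0.847 against 0.664. *HDAC2* differed, with 44.4% and 0.251 before the start of its gene record, but 63.2% and 0.735 in the 250 bp before its canonical start. *GATAD2B* had 52% GC before the start of its record and 60.8% before its canonical start. Over all coding genes, the median GC content was 59.6% where a peak covered the start (2689 genes), 64.4% where one lay within 1000 bp without covering it (4121 genes) and 57.6% at the other 13288. *HDAC1* (71.6%), *MBD3* (74.8%) and *GATAD2A* (67.2%), the members with a peak beside but not over the start, were among those of higher GC content. They were not set apart by it, since *RBBP4*, with its start covered, also had 67.2% and *MTA1*, with no peak, had 76.8%.

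In the 250 bp at the centre of the 47 peaks, CCGGAAG was found in 3 (6.38%, against 1.48% of the list), CACGTG in 3 (6.38%, against 4.21%) and GGGCGG in 4 (8.51%, against 7.62%). CCAAT was found in 10 (21.3%, against 29.9%), TGANTCA in 2 (4.26%, against 9.48%) and the CTCF consensus in none (against 0.832%). These counts are small, and a match of letters is not evidence of binding by the factor.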

How the data were processed

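CHD4 ChIP and input chromatin of 501Mel cells were each sequenced from 1 library. Per the submitters' processing notes, bcl2fastq 2.17.1.14, Bowtie 1.0.0 and MACS2 2.1.1.20160309 were used with hg19, and the authors kept reads with a single best position, so near-identical copies of a sequence could lose peaks. The authors deposited for each broad peak the fold enrichment over background, a ratio, the −log10 p and −log10 q values of their peak caller, and a score that was not used here. No read counts come with the list. The methods name a q cutoff of 0.01, a −log10 q of 2, in a call of broad peaks, and the deposited −log10 q values start at 1.00. How that cutoff applies to the value of a whole broad peak is not stated.

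Peak positions were counted from 1 and placed on GRCh37, with genes from GENCODE release 44 lifted to it. The annotation of peaks made by the authors was left aside. An overlap of 1 bp counted. The text names all 10 members, any coding gene that shares a peak of theirs, and the lists in the closing section. Members and lists were chosen with earlier results of these data known. A further list, of relatives outside NuRD, is not reported here. The peak-free interval of *MBD2* and the genes in it, and the bound of 76 kb in *MTA3*, were picked out once their values were known. Genes of like length lay within 25% of the member's length. Shares carry Wilson and densities exact Poisson intervals at 95%.

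Alternatives were stricter −log10 q minimums of 2 and 5, peaks within 1000 bp joined, an overlap of at least 50% of the peak, other windows before the gene and other definitions of the start. Use of the canonical transcript, and the densities against surroundings with a −log10 q minimum, were added after seeing the data. The overlap counting was tested on simulated data. Intervals came from scipy 1.17.1, sequences were read with pysam 0.24.0, tables were handled with pandas 2.3.3 and numpy 2.4.6, and figures were drawn with matplotlib 3.10.9, under Python 3.11.15.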

Additional observations from a re-analysis of the deposited data

How the results depend on the processing

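The presence of a peak at 8 members held under every alternative but the stricter −log10 q minimums, which left 6 members at a minimum of 2 and 2 at 5. The number of peaks at the members, 47, fell to 19 at a minimum of 2, to 2 at a minimum of 5, and to 30 when the canonical transcript replaced the gene record, an alternative added after seeing the data. The median per 10 kb, 0.628, became 0.168 and 0 at those minimums, 0.614 with peaks within 1000 bp joined, 0.545 with the gene record alone, 0.603 with 5000 bp before the start and 0.519 with the canonical transcript. The median highest fold enrichment, 3.43, became 3.72 at a minimum of 2 and 4.27 at 5, as weaker peaks were removed. The median GC content, 46.3%, became 53.0% at a minimum of 5, 46.7% with joined peaks and 45.9% with the gene record alone. The share of peaks near a transcript start, 38.3%, became 52.6% at a minimum of 2 and 17.0% when only the start itself counted. The 7 members with a peak at the gene start fell to 0 at a minimum of 5 and 5 at 2, and were 7 or 8 under the other definitions of the start. For the median per 10 kb and the count at the start, no value over all coding genes is given at these minimums. For the share of peaks near a transcript start, none over the whole list is given at a minimum of 2 or for the start itself. The 2 members denser in peaks than their surroundings were 0 with the canonical transcript and 1 at a minimum of 2, both added after seeing the data. The share of coding genes denser than their surroundings is not given. The peaks left at the minimum of 5 were *MTA3* peak 2 and *GATAD2A* peak 10.

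No paired analysis was possible because the series holds 1 ChIP and 1 input library and the result comes from no test. With 1 library per group, the spread between replicates is unknown, and without read counts the limit that depth set on calling weak peaks cannot be given.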

Other observations

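The other genes of NuRD and of related complexes were described by the same counts. All 5 remaining NuRD genes (*CHD3*, *CHD4*, *CHD5*, *RBBP7* and *CDK2AP1*) had a peak, 12 in all, and 4 of them had one within 1000 bp of the start, with a median of 0.605 peaks per 10 kb. The interval of the share with a peak, 56.6% to 100%, held the 58.5% over all coding genes. A peak within 1000 bp of the start was present at 33.9% of all coding genes. The highest fold enrichment of this list, 5.38 with a −log10 q of 7.74, lay at *CHD4* itself, above any of the 47 peaks described in the report, followed by 4.40 at *CDK2AP1*, 3.32 at *CHD3*, 3.28 at *RBBP7* and 2.76 at *CHD5*.

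Of 14 genes of the SIN3 and CoREST complexes, which share HDAC1 and HDAC2 with NuRD, 11 had a peak (19 in all). That is 78.6% (interval 52.4% to 92.4%), and 7 had one at the start, with a median of 0.282 peaks per 10 kb. Of 25 SWI/SNF genes, which encode another family of nucleosome remodellers, 18 had a peak (71 in all). That is 72% (interval 52.4% to 85.7%), and 11 had one at the start, with a median of 0.342 per 10 kb. Both intervals held the 58.5% over all coding genes. The counts at the start, given without intervals, stand beside 33.9% of all coding genes. These values are a description of 1 library and no difference between the lists was tested.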
